A study of Mus musculus with 6 samples.

Results

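Cdkn1a and 9 other genes of the p53 pathway (Trp53, Mdm2, Ccng1, Trp53inp1, Eda2r, Sesn1, Bax, Phlda3 and Btg2) were followed in the tibialis anterior (TA) muscle of geriatric mice. They were listed by symbol to ask whether Cdkn1a falls together with other p53 targets under BML-260, and the list was chosen by their known roles and on the measured fold changes of this same contrast, which were in view. All 10 were found among the 45777 genes of the count table. The fold changes of these 10 genes are therefore a description and carry no test. RNA was sequenced from 3 vehicle-treated and 3 BML-260-treated male C57BL/6J mice, labelled as 24 months old, and the study's text gives higher ages in places. BML-260 is a small molecule used by the study to inhibit the phosphatase DUSP22, and was injected at 5 mg/kg for 1 month. The vehicle was a mixture of DMSO and Tween. Both groups were old, so the libraries hold no young muscle, and there was 1 dose and 1 time point.

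The transcription factor p53, encoded by Trp53, is stabilised by DNA damage and other stresses and switches on genes that halt the cell cycle, repair damage or kill the cell. Mdm2 is both a target of p53 and the ubiquitin ligase that degrades it, which forms a feedback loop. Cdkn1a encodes p21, an inhibitor of cyclin-dependent kinases that holds cells in growth arrest and that is also induced without p53, for example by muscle differentiation factors, FOXO factors and TGF-beta signaling. In skeletal muscle, p21 accompanies the cell cycle exit of myoblasts, and both Cdkn1a and Gadd45a are known to rise in denervated or immobilised muscle.

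Upstream sequences are shown for Cdkn1a and Ccng1, because these were the members whose RefSeq promoter window came closest to the p53 response element. That element is a pair of p53 decamers in a row, here searched without a spacer. The decamer reads the same on both strands in its degenerate form. RefSeq windows from 250 bases before to 50 bases after a start (GRCm38.p6) were found for 9 of the 10 members, in 11 windows. The sequence of Cdkn1a covers chr17:29090729-29090978 on the + strand and that of Ccng1 covers chr11:40755310-40755536 on the - strand. Capitals mark the 20 bases of the element.
Cdkn1a: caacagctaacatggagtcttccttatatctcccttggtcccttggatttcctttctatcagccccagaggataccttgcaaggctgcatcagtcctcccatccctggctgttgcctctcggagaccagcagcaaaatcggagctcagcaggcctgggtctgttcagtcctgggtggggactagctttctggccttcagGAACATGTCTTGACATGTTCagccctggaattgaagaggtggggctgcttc
Ccng1: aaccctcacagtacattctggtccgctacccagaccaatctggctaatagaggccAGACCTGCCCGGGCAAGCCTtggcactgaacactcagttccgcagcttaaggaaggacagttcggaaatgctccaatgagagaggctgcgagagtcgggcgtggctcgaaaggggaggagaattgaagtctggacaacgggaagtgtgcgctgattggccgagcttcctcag
Both elements matched the consensus at 19 of 20 positions. The element of Cdkn1a starts 51 bases before the upstream start of the gene (chr17:29090928-29090947), and that of Ccng1 (chr11:40755462-40755481) starts 195 bases before the transcript start of its RefSeq window, at position 40755286. The Ccng1 sequence shown stops at the outer end of the annotated gene, which lies further upstream, at position 40755309. A score of at least 19 was found in 29 of 32851 windows (0.0883%). The best 20 bases of 3 further members reached 17 matches, a score that 6.29% of all windows reached or passed. They are shown with the matching bases in capitals.
Trp53: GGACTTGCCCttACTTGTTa
Sesn1: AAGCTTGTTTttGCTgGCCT
Bax: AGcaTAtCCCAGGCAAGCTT
The Trp53 letters lie at chr11:69580284-69580303 on the + strand, those of Sesn1 at chr10:41887266-41887285 on the + strand and those of Bax at chr7:45467090-45467109 on the - strand. The Sesn1 letters belong to its downstream start. Mdm2, Btg2, Phlda3 and Eda2r had best scores of 15, 16, 15 and 14. The window at the downstream start of Cdkn1a had a best score of 15 and no full decamer. That at the upstream start of Sesn1 had a best score of 14. At least 1 full decamer was present in the windows of 6 members, and in 8.36% of all windows. These matches are letters in a window of 300 bases, and binding of p53 was not measured. As the members are textbook p53 targets, such letters were part of what they were known for.

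The libraries held between 39522890 and 56998875 counts, and 16188 genes were tested. Each member had at least 120 counts in each library. Vehicle replicate 3 stood apart from the other libraries. Its TMM factor, which scales a library for its composition, was 1.20, against 0.914 to 1.02 in the other 5 libraries. Summed neutrophil markers reached 187 CPM (TMM-scaled counts relative to library size) in that library and 2.86 to 55.3 CPM in the others. Macrophage markers summed to 397 CPM there and to 82.6 to 143 CPM elsewhere, and erythroid markers to 2344 and 591 to 839 CPM. Slow fiber markers summed to 358 CPM there and to 74.2 to 123 CPM elsewhere. Fast fiber markers, the defining genes of TA muscle, were abundant in all 6 libraries (71700 to 125030 CPM) and lowest in vehicle replicate 3. Each member is therefore given with and without this library, and so are the genes named from lists that lost their call without it. In whole muscle, fewer cells of a type and less RNA per cell cannot be told apart.

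Across all genes, 931 of 16188 (5.75%) differed by 1.3-fold or more at an unadjusted p under 0.05 by edgeR's quasi-likelihood test, the threshold used here for a call. Of these, 786 (4.86%) were lower with BML-260 and 145 were higher. At a Benjamini-Hochberg adjusted p under 0.05, edgeR called 0 genes (0.0%), although 966 genes had an unadjusted p under 0.05 and DESeq2 called 95 genes. Among the members, 3 met the call threshold, all lower (Cdkn1a, Eda2r and Btg2), and none had an adjusted p under 0.05 with edgeR or DESeq2. Without vehicle replicate 3 only Cdkn1a met it, beside 657 of 16502 genes (3.98%). Because the contrast was in view when the members were chosen, nothing is read from these counts.

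Cdkn1a (gene identifier 12575, chr17:29090979-29100722) was the member with the lowest values under BML-260 relative to vehicle. Its level was 6.61, 27.2 and 32.5 CPM in vehicle replicates 1, 2 and 3, and 2.22, 3.95 and 5.62 CPM in BML-260 replicates 1, 2 and 3. All 3 BML-260 libraries lay below all 3 vehicle libraries, but vehicle replicate 1 was much closer to the BML-260 libraries than to the other vehicle libraries. The mean was 22.1 ± 13.7 CPM (SD, n = 3) with vehicle and 3.93 ± 1.70 CPM (SD, n = 3) with BML-260. The log2 fold change was -2.50 (SE 0.57), or 5.65-fold lower. It remained between -2.93 and -2.10 when each library was left out in turn, and was -2.10 (SE 0.48) without vehicle replicate 3. Libraries without overlap in this direction were found for 1118 of all tested genes (6.91%), and Cdkn1a was the 1 member of this kind. The gap between the groups was narrow, from 5.62 CPM in the highest BML-260 library to 6.61 CPM in the lowest vehicle library. Vehicle replicate 2 was 4.11-fold above vehicle replicate 1, so high Cdkn1a was not limited to vehicle replicate 3. Cdkn1a has 2 annotated starts, and the gene-level counts do not separate their transcripts.

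**Figure D1:**
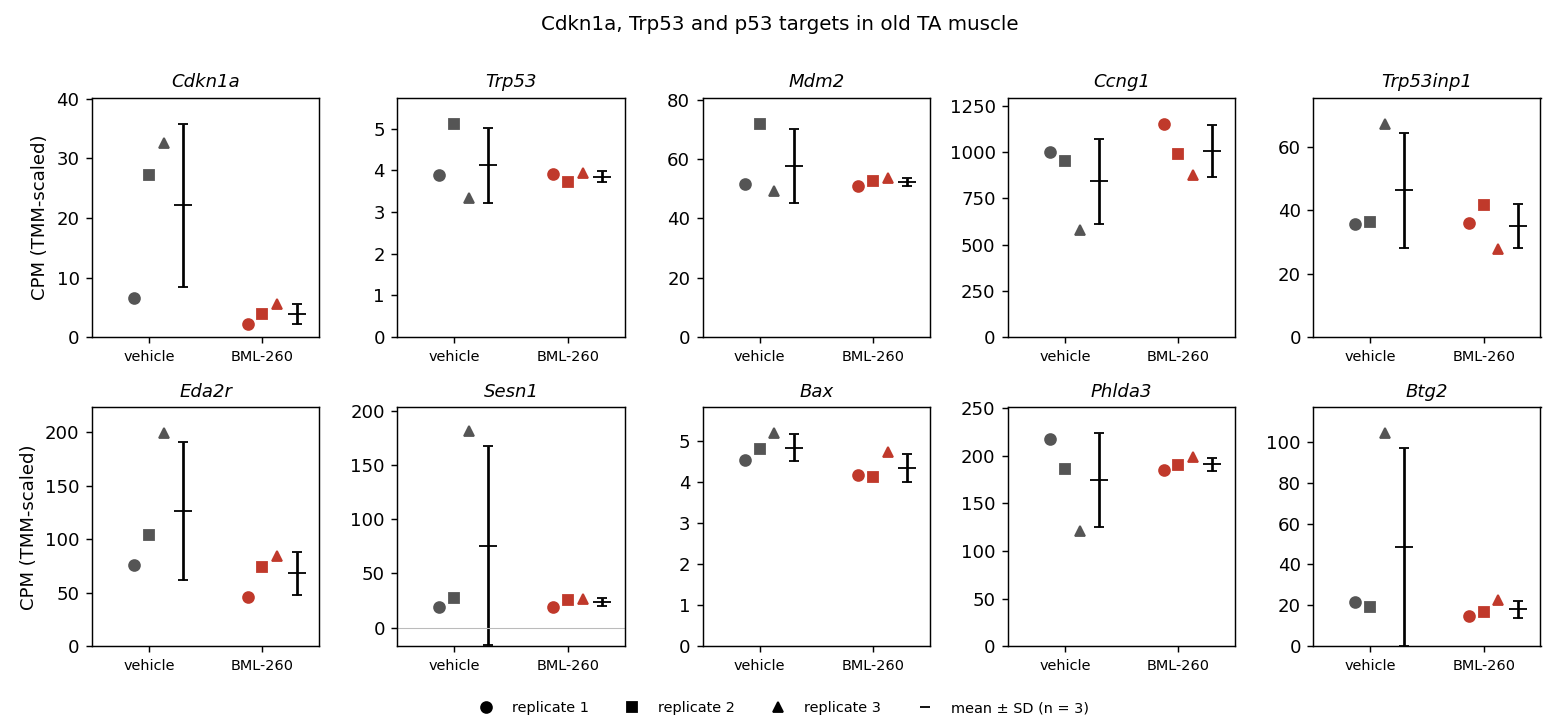
Level of each member in each library (y axis, TMM-scaled CPM, a separate scale in each panel) for vehicle (grey) and BML-260 (red). Symbols mark the replicate number, and bars mark the mean ± SD of 3 libraries. Cdkn1a is high in vehicle replicates 2 and 3, Sesn1 and Btg2 are high in vehicle replicate 3 alone, and Trp53, Mdm2 and Bax stay within a narrow range.

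The libraries of the groups overlapped for the p53 gene itself. Trp53 was at 3.90, 5.12 and 3.35 CPM in the vehicle libraries and at 3.91, 3.71 and 3.93 CPM in the BML-260 libraries. The BML-260 values lay inside the vehicle range, and the log2 fold change was -0.09 (SE 0.21), or -0.22 (SE 0.20) without vehicle replicate 3. Vehicle replicate 3, where Cdkn1a was highest, had the lowest Trp53 on the CPM scale. TPM corrects for transcript length and, unlike the CPM used here, is not scaled by TMM. On the TPM scale the Trp53 value of vehicle replicate 3, 4.02, was between those of the other vehicle libraries. These are RNA levels, and the amount or activity of the p53 protein was not measured.

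Mdm2, the p53-induced ligase that degrades p53, was at 51.7, 71.9 and 49.1 CPM with vehicle and at 50.9, 52.5 and 53.6 CPM with BML-260. Again the groups overlapped, with a log2 fold change of -0.14 (SE 0.17), or -0.23 (SE 0.15) without vehicle replicate 3. Only vehicle replicate 2 was above the rest, and without that library the sign turned (0.05 for Mdm2 and 0.09 for Trp53). For the negative regulator of p53 the BML-260 libraries were nearly equal, with a coefficient of variation of 2.56%.

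Among the growth arrest and repair genes, the groups overlapped for Ccng1, Sesn1 and Btg2, and the estimates of Sesn1 and Btg2 rested on a single library. Ccng1, which encodes cyclin G1 and is among the most consistently p53-induced genes, was at 999, 950 and 579 CPM with vehicle and at 1153, 988 and 878 CPM with BML-260. Its log2 fold change was 0.26 (SE 0.25), and 0.05 (SE 0.16) without vehicle replicate 3, where its level was lowest. With a library left out in turn, the Ccng1 estimate ran from 0.05 to 0.40. Cdkn1a and Ccng1 were the members whose upstream windows held the best p53 letters. Any link between those letters and the estimates was not tested. Sesn1 encodes sestrin 1, a stress-induced inhibitor of mTORC1. It was at 18.8, 27.3 and 181 CPM with vehicle and at 19.4, 25.4 and 26.8 CPM with BML-260. Vehicle replicate 3 was 6.63-fold above the next highest library. The log2 fold change of -1.67 (SE 0.75) became 0.06 (SE 0.19) without it. Btg2, an antiproliferative gene that is also an immediate early response gene, was at 21.5, 19.1 and 105 CPM with vehicle and at 14.6, 16.7 and 22.4 CPM with BML-260. Its log2 fold change was -1.44 (SE 0.61) with all libraries and -0.18 (SE 0.18) without vehicle replicate 3.

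For the members linked to cell death the groups overlapped too. Bax, the pore-forming effector of mitochondrial apoptosis, was at 4.52, 4.79 and 5.18 CPM with vehicle and at 4.15, 4.12 and 4.72 CPM with BML-260. The groups overlapped within a range of 1.26-fold, and the log2 fold change was -0.16 (SE 0.18), or -0.10 (SE 0.19) without vehicle replicate 3. Phlda3, a p53-induced inhibitor of Akt, was at 217, 186 and 121 CPM with vehicle and at 184, 190 and 199 CPM with BML-260. Its log2 fold change was 0.13 (SE 0.22), and -0.08 (SE 0.14) without vehicle replicate 3. Trp53inp1, a p53-induced cofactor linked to apoptosis and autophagy, was at 35.6, 36.3 and 67.3 CPM with vehicle and at 35.9, 41.6 and 27.7 CPM with BML-260. Vehicle replicates 1 and 2 lay inside the range of the BML-260 libraries, and the log2 fold change of -0.40 (SE 0.27) became -0.03 (SE 0.17) without that library.

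Eda2r, the ectodysplasin A2 receptor of the TNF receptor family, is known to rise with age in many tissues and to take part in muscle wasting. It was at 76.1, 104 and 199 CPM with vehicle and at 46.1, 73.9 and 84.3 CPM with BML-260. The highest BML-260 library exceeded the lowest vehicle library, so the groups overlapped. The log2 fold change was -0.89 (SE 0.36), or 1.86-fold lower, and -0.40 (SE 0.23) without vehicle replicate 3. After Cdkn1a, it was the member with the largest remaining decrease without that library. A pseudogene, Gm18111, lies inside the Eda2r locus, and how the authors treated reads shared between them is not given in the sources used here. Genes of its pathway were counted beside it. Of 7 tested genes for ectodysplasin signaling and its NF-kappaB branch, 1 was called (14.3%, beside 5.75% of all genes). This was Nfkb2 (lower, -0.49, SE 0.19).

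Over the 10 members, 8 had lower and 2 had higher estimates with BML-260. Their median log2 fold change was -0.28. For the 9 members other than Cdkn1a the median was -0.16, and -0.10 without vehicle replicate 3. Across all tested genes 50.5% were lower and the median was -0.0039. Cdkn1a was high in vehicle replicates 2 and 3. Sesn1, Btg2, Eda2r and Trp53inp1 were highest in vehicle replicate 3, the library with the highest neutrophil, macrophage, erythroid and slow fiber markers, and the part of those cells in these values was not tested. Trp53, Mdm2, Ccng1 and Phlda3 were lowest in that library on the CPM scale, and Bax varied little. On the TPM scale only Ccng1 kept its lowest value there.

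**Figure D2:**
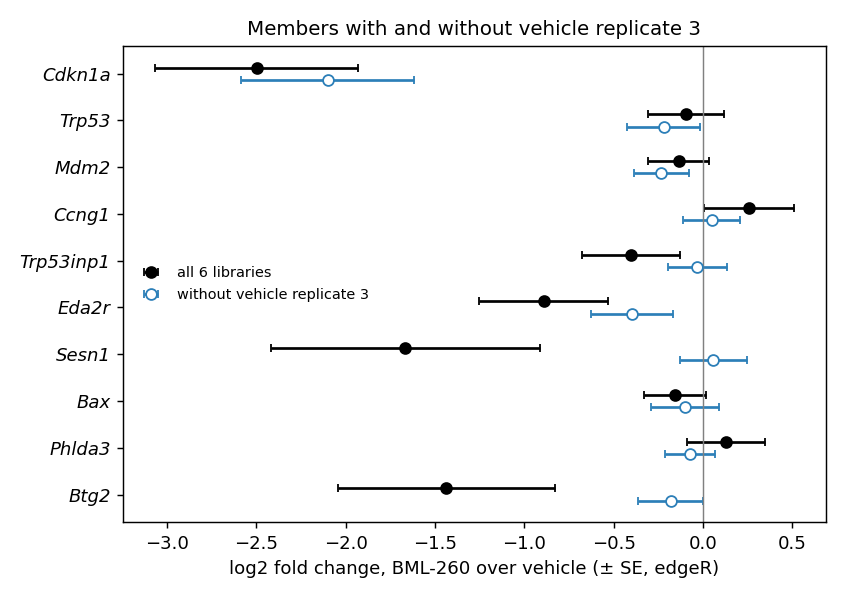
Log2 fold change of each member (x axis, BML-260 over vehicle, bars are the SE from edgeR) with all 6 libraries (black) and without vehicle replicate 3 (open blue). Cdkn1a stays at -2.10 or below in both fits, while Sesn1 moves from -1.67 to 0.06 and Btg2 from -1.44 to -0.18.

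The ratio of Cdkn1a to another member in the same library does not depend on how libraries are scaled. Relative to Mdm2, the log2 ratio of CPM was -2.97, -1.40 and -0.59 in the vehicle libraries and -4.52, -3.73 and -3.25 in the BML-260 libraries. Relative to Trp53 it was 0.76, 2.41 and 3.28 with vehicle and -0.81, 0.09 and 0.52 with BML-260. In both cases all vehicle ratios lay above all BML-260 ratios. The same held for 7 of the 9 other members, close to the 71.3% of all other tested genes (11540 of 16187) for which it held, so nothing particular to the members is read from it. Some gaps were narrow, as for Ccng1, with -7.24 in the lowest vehicle library and -7.29 in the highest BML-260 library. The exceptions were Sesn1 and Trp53inp1. The Sesn1 ratio of vehicle replicate 3 (-2.48) fell among the BML-260 ratios (-3.13 to -2.26). These ratios share the same Cdkn1a values and are not independent of one another.

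Compared per transcript length, the members covered a wide range of levels. In the BML-260 libraries Ccng1 was highest at 467 ± 39.0 TPM (SD, n = 3), followed by Phlda3 (212 ± 20.6 TPM), Mdm2 (26.3 ± 2.51 TPM) and Eda2r (22.3 ± 7.37 TPM). Sesn1 (14.0 ± 3.07 TPM), Trp53inp1 (10.6 ± 2.30 TPM), Btg2 (9.50 ± 2.57 TPM) and Bax (8.07 ± 0.98 TPM) came next. The lowest were Cdkn1a (3.38 ± 1.60 TPM) and Trp53 (3.35 ± 0.218 TPM). Neighbours separated without overlap only between Ccng1 and Phlda3, Phlda3 and Mdm2, and Bax and Cdkn1a. With vehicle, Ccng1 (425 ± 44.4 TPM) and Phlda3 (210 ± 28.9 TPM) again led. Sesn1 (59.5 ± 80.7 TPM), Eda2r (47.4 ± 33.4 TPM), Btg2 (33.0 ± 38.9 TPM), Mdm2 (29.9 ± 2.95 TPM), Cdkn1a (22.3 ± 16.7 TPM) and Trp53inp1 (16.6 ± 10.4 TPM) followed with overlapping libraries. Bax (10.2 ± 2.93 TPM) and Trp53 (3.93 ± 0.434 TPM) were last. By these means Cdkn1a was in 7th place with vehicle and in 9th place with BML-260. The high vehicle means of Sesn1 and Btg2 rested on vehicle replicate 3. Their vehicle medians were 15.2 and 11.4 TPM, below the Cdkn1a median of 22.1 TPM, so its place with vehicle is higher by medians.

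**Figure D3:**
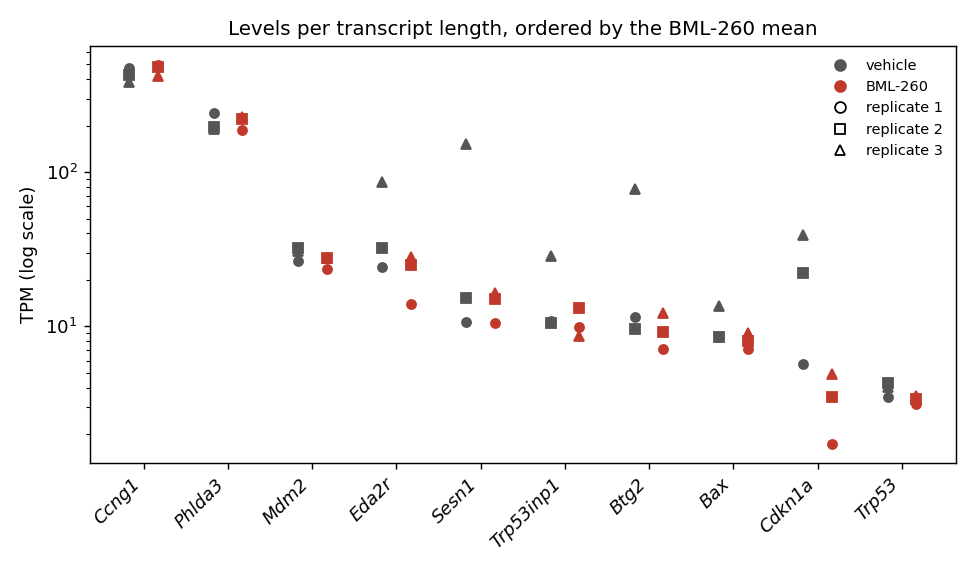
TPM of each member (y axis, log scale) in the 3 vehicle (grey) and 3 BML-260 (red) libraries, ordered by the BML-260 mean, with symbols for the replicate number. Ccng1 and Phlda3 lie above the rest in both groups, with Sesn1 of vehicle replicate 3 (153 TPM) the nearest point, and Cdkn1a is the member whose red points all lie below its grey points.

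Beyond the members, 60 textbook p53 targets were listed, of which 53 were tested. Of these, 30 were lower and 23 higher. Their median log2 fold change was -0.15, and 0.01 without vehicle replicate 3. By edgeR, 7 were called (13.2%, beside 5.75% of all genes), 6 lower and 1 higher. None had an adjusted p under 0.05 with edgeR (7 had an unadjusted p under 0.05, smallest adjusted p 0.553), and 1 had with DESeq2. That gene was Gadd45a, a stress gene linked to DNA repair and to muscle atrophy. It was at 41.3, 106 and 109 CPM with vehicle and at 16.5, 24.6 and 22.2 CPM with BML-260, a log2 fold change of -2.02 (SE 0.35; -1.79 without vehicle replicate 3), with an adjusted p of 1.16e-05 by DESeq2. Like Cdkn1a, Gadd45a was high in vehicle replicates 2 and 3, lower in vehicle replicate 1 and lowest in the BML-260 libraries.

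The other targets called lower were smaller changes or low counts. Fas, a death receptor, had a log2 fold change of -0.83 (SE 0.30), Tap1, a peptide transporter of antigen presentation, was at -0.75 (SE 0.33), and Ppm1d, the phosphatase WIP1 that dampens p53 signaling, at -0.47 (SE 0.17). These 3 were not called without vehicle replicate 3, where they were at -0.45, -0.53 and -0.36. Apaf1, the scaffold of the apoptosome, was at -0.61 (SE 0.20), and at -0.50 without that library. Dusp5, a phosphatase for ERK, was at -2.06 (SE 0.65) with at most 0.719 CPM in any library. Cmbl, a hydrolase, was called higher (0.72, SE 0.31; 0.42 without vehicle replicate 3). Abundant targets that were not called included Ak1 (0.49, SE 0.38; 0.14 without vehicle replicate 3), Tigar (0.48, SE 0.24; 0.28 without it) and Rps27l (-0.09, SE 0.19). Without vehicle replicate 3, 5 targets were called, 4 of them among the 7 (Gadd45a, Apaf1, Dusp5 and Cmbl). The count was 12 without vehicle replicate 1, 3 without BML-260 replicate 1, and 4 without BML-260 replicate 2 or 3.

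**Figure D4:**
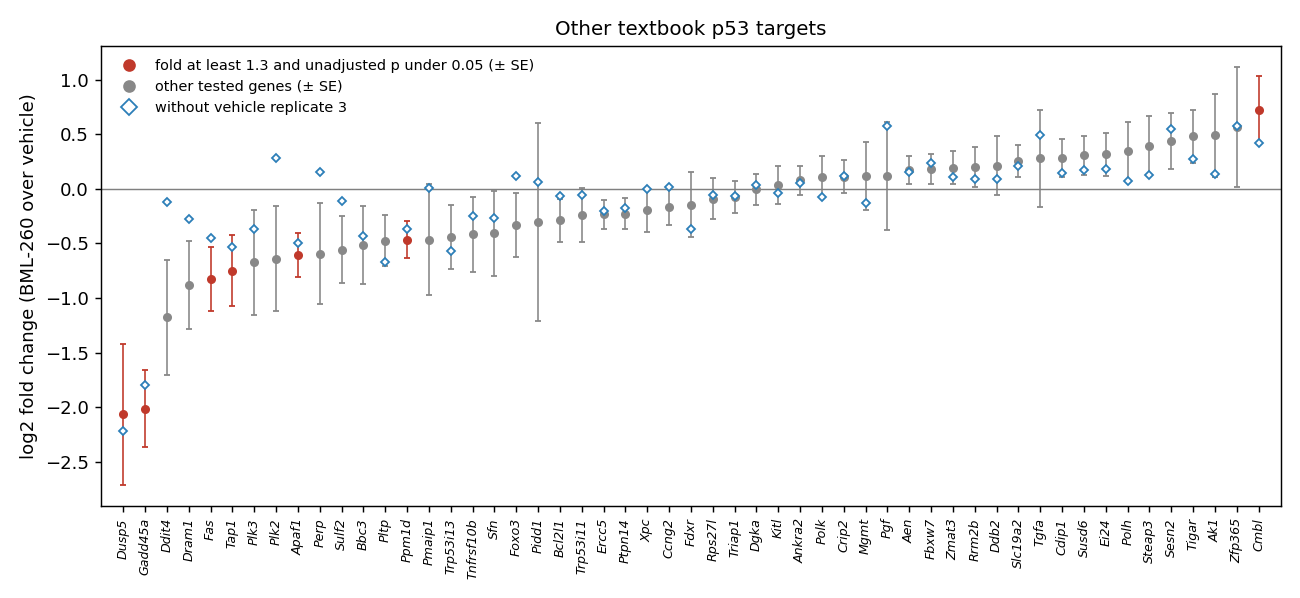
Log2 fold change (y axis, BML-260 over vehicle) of the 53 tested p53 targets other than the members, ordered by value, with the SE from edgeR. Red points are called genes and open blue diamonds give the value without vehicle replicate 3. Dusp5 and Gadd45a lie near -2 in both fits and most other targets lie around 0.

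Genes that act on p53 were counted next. Of 26 tested regulators, 12 were lower and 14 higher, with a median log2 fold change of 0.01. By edgeR 1 was called (3.85%, beside 5.75% of all genes). This was Trp63 (-0.70, SE 0.23), which encodes the p53 family member p63. Without vehicle replicate 3, 2 were called, Trp63 (-0.75) and Mdm4 (-0.77, SE 0.25). With all libraries Mdm4 was at -0.63 (SE 0.28) and not called. Its level was highest in vehicle replicate 2, at 101 CPM. Vehicle replicate 1 lay within the range of the BML-260 libraries, 40.7 to 45.5 CPM. With a library left out in turn, the Mdm4 estimate ran from -0.84 to -0.20, so its size depended on single libraries. The abundant Usp7, a deubiquitinase of p53 and MDM2, was at 0.02 (SE 0.14), and the ribosomal proteins Rpl5 and Rpl11, which bind MDM2, were at -0.45 (SE 0.23) and -0.27 (SE 0.19), and at -0.18 and -0.09 without vehicle replicate 3.

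Other CDK inhibitors overlapped between the groups. None of the 5 tested was called by edgeR, none had an unadjusted p under 0.05, and DESeq2 called 0 at an adjusted p under 0.05. Cdkn1b (p27) was at 20.6, 15.8 and 23.6 CPM with vehicle and 20.6, 20.7 and 21.5 CPM with BML-260 (0.06, SE 0.17; 0.20 without vehicle replicate 3). Cdkn1c (p57) had a log2 fold change of 0.15 (SE 0.15) and Cdkn2d (p19) one of -0.07 (SE 0.19). Cdkn2a, the p16 and p19ARF locus used as a senescence marker, had at most 16 counts in a library and was not tested, so a difference was not detectable at this depth.

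The partners and the processes that p21 acts on were counted beside it. The list of p21 partners (cyclins, CDKs and Pcna) also held the retinoblastoma family genes, on which the CDKs act. Of its 13 tested genes, 2 were called (15.4%, beside 5.75% of all genes), both lower. These were the retinoblastoma gene Rb1 (-0.89, SE 0.21) and the kinase Cdk6 (-0.83, SE 0.29). Rb1 was at 38.0, 62.6 and 56.1 CPM with vehicle and 25.7, 32.7 and 26.2 CPM with BML-260. Cdk6 was at -0.44 and not called without vehicle replicate 3. The list's median was -0.35, and without vehicle replicate 3 it was -0.03 with 1 gene called. Of 24 tested proliferation genes, 20 were lower, beside 50.5% of all genes, with a median of -0.57. By edgeR 8 were called (33.3%, beside 5.75% of all genes), all lower. Examples were Rrm2 (-2.38, SE 0.44), a subunit of ribonucleotide reductase, Top2a (-2.11, SE 0.65), a topoisomerase of dividing cells, and Mki67 (-2.45, SE 0.83), the antigen Ki-67. Without vehicle replicate 3, 2 were called and the median was -0.24. Rrm2 (-2.10) and Top2a (-1.09) were still called, and Mki67 (-0.92) was not. The summed level of the list overlapped between the groups, at 105, 111 and 133 CPM with vehicle and 113, 111 and 95.0 CPM with BML-260. Rrm1, not called and 1 of the 4 higher genes, was the largest part of each sum. It was at 46.9, 53.6 and 29.3 CPM with vehicle and 55.4, 62.8 and 44.9 CPM with BML-260. The overlap of the sums therefore does not describe the other genes of the list. Mki67 reached 19.7 CPM in vehicle replicate 3, where macrophage and neutrophil markers were highest, against 4.18 CPM or less elsewhere, and the part of those cells in this value was not tested.

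Of 19 tested genes that accompany senescence, most of them secretory, 15 were lower, with a median log2 fold change of -0.77. The list also held Lmnb1 (0.01, SE 0.26) and Glb1 (-0.28, SE 0.29), which are not secretory genes and were not called. By edgeR 8 were called (42.1%, beside 5.75% of all genes), all lower. They included the cytokine Il1b (-3.00, SE 0.70), the chemokine Ccl8 (-2.02, SE 0.37), the matrix protease Mmp3 (-3.20, SE 1.02) and its inhibitor Timp1 (-2.05, SE 0.62). Among abundant genes of this list, Igfbp4, an IGF binding protein named after its values were seen, was called lower (-0.95, SE 0.38; -0.36 and not called without vehicle replicate 3). Others were not called: Igfbp5 was at 0.13 (SE 0.46), Serpine2 at 0.25 (SE 0.22) and Cxcl12 at 0.20 (SE 0.21), and without vehicle replicate 3 they were at -0.28, 0.10 and 0.04. Without vehicle replicate 3, 3 were called (Il1b, Ccl8 and Timp1, at -2.07, -1.92 and -1.11), Mmp3 was at -0.99 and not called, and the median was -0.28. Several of these genes are also made by myeloid cells. With BML-260, 9 of 11 macrophage and 6 of 6 tested neutrophil markers were called lower, beside 4.86% of all genes (7 and 4 markers without vehicle replicate 3). The neutrophil gene Ly6g had counts in vehicle replicate 3 alone. Summed macrophage markers were at 138, 143 and 397 CPM with vehicle and at 104, 82.6 and 96.7 CPM with BML-260, and summed neutrophil markers at 55.3, 9.46 and 187 CPM and at 3.67, 2.86 and 6.02 CPM. In the same libraries Cdkn1a was at 6.61, 27.2 and 32.5 CPM with vehicle and at 2.22, 3.95 and 5.62 CPM with BML-260. The part of macrophages and neutrophils in the Cdkn1a result was not tested. T and B lymphocyte markers summed to 1.59 CPM or less in each library.

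Relatives of other members were mixed. Of 21 tested further apoptosis genes, 15 were lower and 2 were called (9.52%, beside 5.75% of all genes), both lower. Among them was Bid (-1.18, SE 0.36), which activates Bax. The count was again 2 without vehicle replicate 3, while the median moved from -0.27 to -0.05. Of 4 tested BTG/TOB genes, 2 were lower and 2 higher, with a median of -0.36 (-0.09 without vehicle replicate 3). In this list 1 was called (25%, beside 5.75% of all genes). This was Btg1, the closest relative of Btg2, which was lower (-0.72, SE 0.20) and was at 16.4, 20.3 and 27.6 CPM with vehicle and 13.1, 12.2 and 13.8 CPM with BML-260. Btg3 (-0.73, SE 0.39; -0.19 without vehicle replicate 3) and Tob1 (0.13, SE 0.17) were not called, nor was Tob2. Without that library Tob1 was at 0.0038. The sestrin genes Sesn2 (0.44, SE 0.26) and Sesn3 (-0.22, SE 0.26) were not called.

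Among the genes whose log2 CPM followed Cdkn1a most closely over the 6 libraries were Gtf2f1 (Pearson r 0.999), Tmem144 (0.994), Utp14b (0.992), Sgo2a, Gbe1 and Atp6v1a (0.984 each), Gm3414 and Lacc1 (0.983 each) and Ddc (0.982). The 6 libraries fall into treatment groups, so these values describe an order and are not a test. No member of the p53 list and no p53 target of the longer list was among them. Gtf2f1, a subunit of the general factor TFIIF, spanned only 1.18-fold over the libraries.

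The denervation response, a list that holds Gadd45a, was counted as well. Of 15 tested, 14 were lower and 11 were called, all lower (73.3%, beside 5.75% of all genes), with a median log2 fold change of -1.50. Runx1, a transcription factor induced by denervation, was at 14.1, 44.4 and 32.9 CPM with vehicle and at 5.51, 4.10 and 5.83 CPM with BML-260 (-2.57, SE 0.39). Chrna1, the alpha subunit of the acetylcholine receptor, was at 13.9, 36.4 and 23.3 CPM with vehicle and at 7.95, 8.62 and 9.42 CPM with BML-260 (-1.50, SE 0.31). In both, as in Cdkn1a, vehicle replicate 1 was the lowest vehicle library. Without vehicle replicate 3 the median was -1.38 and 13 genes were called. Gdf5, a BMP family ligand, was at -3.39 (SE 0.44) and the embryonic myosin Myh3 at -1.66 (SE 0.43), while Myh8, the perinatal myosin, was not called (0.17, SE 0.26). With edgeR 0 of the 15 had an adjusted p under 0.05 (11 had an unadjusted p under 0.05), and DESeq2 called 6.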

How the data were processed

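RNA from the TA muscle of 3 vehicle and 3 BML-260 mice was sequenced from stranded total RNA libraries. Per the labels, the authors processed reads for mm10 with StringTie, HISAT2, Bowtie2 and Trimmomatic 0.38. They deposited raw counts per gene for all libraries and TPM values per library. How strand and multi-mapped reads were treated is not given in the sources used here. Gene symbols came from the TPM tables (16800 genes) and from RefSeq GRCm38.p6.

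Counts were filtered by filterByExpr, scaled by TMM and tested with edgeR 4.0.16 (quasi-likelihood, Benjamini-Hochberg adjustment over all 16188 tested genes) in R 4.3.3, with group as the sole factor. A gene was called when it differed by 1.3-fold or more at an unadjusted p under 0.05. P-values measure the spread between these 3 libraries per group. The fit was tested on simulated data. Alternatives were RLE and upper quartile scaling, a replicate block, no filter or a minimum of 10 counts per library, omission of each library, DESeq2 1.42.0, limma 3.58.1 voom, and limma on log2 TPM (pseudocounts 1 and 0.1). Named were all members, the 10 genes most correlated with Cdkn1a (log2 CPM, prior count 2), and in each list up to 6 called genes by p and 3 abundant others. Tap1 and further genes of lists were named to account for small counts of calls, after their values were seen. Some genes that this rule names are not reported here. Members and lists were chosen with earlier results of these data known. Figures were drawn with matplotlib 3.10.9.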

Additional observations from a re-analysis of the deposited data

How the results depend on the processing

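Cdkn1a stayed lower in all alternatives, with log2 fold changes from -2.52 to -2.14 under other scalings, filters, tests and units. It ranged from -2.93 (without vehicle replicate 1) to -2.10 (without vehicle replicate 3) when a library was left out. Sesn1 (0.06) and Phlda3 (-0.08) changed sign without vehicle replicate 3, and Trp53 (0.09) and Mdm2 (0.05) without vehicle replicate 2. On log2 TPM the median of all genes moved to -0.10 (pseudocount 1) and -0.14 (0.1), and Bax moved to -0.28 and -0.31. Called genes numbered 1416 with no filter, 503 on log2(TPM + 1), and 503 to 2223 with a library left out (without BML-260 replicate 2 and without vehicle replicate 1). Genes with an adjusted p under 0.05 numbered 1 with no filter, 1 with at least 10 counts in every library, 95 with DESeq2 and 0 to 9 with a library left out. Other p53 targets called numbered 3 to 12 with a library left out and 6 to 9 otherwise. The cause of these shifts was not tested. Ordering members by median TPM kept 16 of 18 neighbouring pairs.

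The labels share replicate numbers between groups but do not say that a number marks a pair. Same-numbered libraries deviated together weakly (r = 0.16, 0.05 and 0.11), each best with its own number, a hint from the data alone. With a replicate block Cdkn1a was at -2.31 (SE 0.26), 1057 genes and 8 other p53 targets were called, and 0 genes had an adjusted p under 0.05. With 3 libraries per group, low genes such as Dusp5 and Cdkn2a are limited by depth.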
